A study of Mus musculus with 2 samples.

Results

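The collagen genes of the mouse were examined in the embryonic retina with and without Sox11. The members were all genes whose symbol in the platform annotation is Col, a number, the letter a and a number, taken from probe sets annotated to exactly 1 gene. This gave 42 collagen genes, measured by 82 probe sets, among 18193 genes in all. Each gene took the values of its probe set with the highest mean over the arrays. The choice of probe set therefore used the measured values, and the family was picked with earlier results of these arrays known, so every difference below is a description.

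The arrays came from 1 retina of a Sox11-/- embryo and 1 retina of a wild-type littermate, both C57BL/6 and taken at embryonic day 18. The SoxC transcription factor Sox11 acts in differentiating neurons. How the mutant allele was made is not stated in the labels, and neither is a restriction to certain cells. The values are probe set intensities as the authors scaled them. With 1 array per genotype there was no spread between animals and no test. On these arrays Xist, the RNA of the inactive X chromosome of female cells, read 922.7 in the knockout and 12.3 in the wild type. Each Xist probe set was higher in the knockout. A difference in sex can therefore not be told apart from genotype for any gene below, and its part was not tested. On the arrays as labelled, 5 of 6 Sox11 probe sets were lower in the knockout, with log2 ratios between -3.64 and -0.18, and the other had 1.08. Of 10 neural retina markers, 8 had a value, and their intensities lay between 45.2 and 2085.8 in the knockout and between 55.8 and 2160.9 in the wild type.

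Collagens are secreted or membrane-bound proteins in which chains with a glycine at regular intervals wind into a triple helix. Fibrillar collagens form the fibres of connective tissue and of the vitreous, type IV collagens form the sheet of basement membranes, FACIT collagens decorate the surface of fibrils, and transmembrane collagens are held in the plasma membrane by their own chain. In the eye, the neural retina borders the vitreous through the inner limiting membrane, which contains type IV and type XVIII collagen. The vitreous itself is built of fibrils of types II, IX and XI. Type I and type III collagen are mainly products of fibroblasts and other mesenchymal cells, which surround the retina and accompany its vessels.

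The promoters of members on which the results turn are shown first. They are RefSeq windows of 300 bases on GRCm38.p6, from 250 bases before to 50 after an annotated start of transcription. A window was listed for 33 of the 42 genes, 36 windows in all, since Col9a1, Col6a2 and Col18a1 had more than 1 start. None was listed for Col1a1, Col2a1, Col4a3, Col5a2, Col9a3, Col12a1, Col14a1, Col22a1 and Col26a1. Capitals mark matches, on either strand, to AACAAT, a core recognised by Sox proteins, to CCAAT, to GGGCGG, the GC box, and to TATAAA. Col3a1 and Col1a2 are shown because they stood furthest apart between the arrays among genes with a window, Col4a6 and Col4a5 because they are head-to-head neighbours that were both higher in the knockout, and Col4a1 because it shares its promoter region with Col4a2.
Col3a1, chr1:45311288-45311587, plus strand: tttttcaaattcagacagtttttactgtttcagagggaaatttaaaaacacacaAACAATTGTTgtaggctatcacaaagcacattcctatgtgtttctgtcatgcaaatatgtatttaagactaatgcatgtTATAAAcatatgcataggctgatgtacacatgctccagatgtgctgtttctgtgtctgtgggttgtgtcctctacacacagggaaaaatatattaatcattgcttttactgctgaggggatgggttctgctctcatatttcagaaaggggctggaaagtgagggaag
Col1a2, chr6:4505368-4505667, plus strand: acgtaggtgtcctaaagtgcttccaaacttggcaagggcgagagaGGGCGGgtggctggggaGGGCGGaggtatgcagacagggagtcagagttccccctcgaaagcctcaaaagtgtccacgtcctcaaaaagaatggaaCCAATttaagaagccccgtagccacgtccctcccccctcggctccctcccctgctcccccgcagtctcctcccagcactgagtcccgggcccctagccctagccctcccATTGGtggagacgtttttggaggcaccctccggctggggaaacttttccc
Col4a6, chrX:141474027-141474326, minus strand: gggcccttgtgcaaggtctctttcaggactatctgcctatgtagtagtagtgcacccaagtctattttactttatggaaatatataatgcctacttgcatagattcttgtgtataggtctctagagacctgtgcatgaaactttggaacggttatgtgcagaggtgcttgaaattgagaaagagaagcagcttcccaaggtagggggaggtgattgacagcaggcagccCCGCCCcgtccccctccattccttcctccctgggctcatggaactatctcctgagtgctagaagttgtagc
Col4a5, chrX:141475169-141475468, plus strand: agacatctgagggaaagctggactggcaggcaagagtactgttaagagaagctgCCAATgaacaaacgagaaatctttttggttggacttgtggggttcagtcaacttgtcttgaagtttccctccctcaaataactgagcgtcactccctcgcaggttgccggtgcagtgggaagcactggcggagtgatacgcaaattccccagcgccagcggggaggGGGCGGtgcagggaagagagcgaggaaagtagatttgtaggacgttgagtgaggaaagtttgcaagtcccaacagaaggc
Col4a1, chr8:11312777-11313076, minus strand: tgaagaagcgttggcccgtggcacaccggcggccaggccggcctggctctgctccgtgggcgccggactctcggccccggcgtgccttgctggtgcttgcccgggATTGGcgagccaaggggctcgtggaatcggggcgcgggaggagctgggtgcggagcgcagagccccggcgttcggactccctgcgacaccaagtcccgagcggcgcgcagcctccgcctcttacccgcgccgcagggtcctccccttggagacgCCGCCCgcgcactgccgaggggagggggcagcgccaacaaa

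The windows of Col3a1 and Col1a2, the furthest apart among genes with a window, held different matches. The Col3a1 window held the Sox core on both strands in 1 overlapping run whose first base is 196 bases before the start, and the TATA word 117 bases before it. Its GC content was 37.7%. The Col1a2 window, at 61% GC, held neither of these and had 2 matches each to the CCAAT word and to the GC box. The Sox core was found in 1 of the 36 collagen windows, that of Col3a1, or 2.78%, against 10.7% of all 32851 windows of this length. The CCAAT word was in 13 collagen windows (36.1%, against 37.4% of all), the GC box in 22 (61.1%, against 35.7%) and the TATA word in 5 (13.9%, against 13.6%). A match is a string of letters and not a site of binding.

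Across the family, Col3a1, Col1a1 and Col1a2, fibrillar collagens of mesenchyme, had the largest log2 ratios and were higher on the knockout array. The wild-type values of Col3a1 and Col1a1 were too dim for more than a lower bound. Their folds were at least 13.6 and at least 1.64. The basement membrane chains Col4a6 and Col4a5 and the beaded filament chain Col6a2 were higher as well, and the fibrillar collagen Col2a1 and the multiplexin Col18a1 were lower. A gene entered the counts if its brighter array read at least 18.6, the median intensity of the pooled arrays. That was the case for 24 of the 42 collagen genes and 11553 of all genes. Ratios are given as knockout minus wild type of log2(intensity + 5), a scale on which differences of dim genes come out too small. On that scale 3 of the 24 were at least 2-fold higher, where the background over all genes past the filter was 0.961%, and none was at least 2-fold lower, where it was 0.407%. At 1.5-fold, 6 were higher (background 3.81%) and 2 were lower (background 2.17%). The median of the 24 was 0.21, against -0.01 for all genes, and 18 of the 24 ratios were above 0, against 47.7% of all genes. After quantile normalization the number above 0 was 15, against 43.0% of all genes, and after loess it was 15, against 44.6%.

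Part of that pattern follows from the filter, because Col1a1, Col3a1, Col8a1 and Col6a3 passed it only through their knockout value and Col12a1 only through its wild-type value. Among the 19 collagen genes at or above 18.6 on both arrays, 14 had a positive ratio, against 47.1% of such genes, and their median was 0.21, against -0.01. At least 2-fold higher among these 19 was Col1a2, where the background was 0.383%. With no filter, 30 of all 42 ratios were positive, against 47.4% of all genes. Just inside the filter was Col6a3, at 18.7 in the knockout and 17.7 in the wild type. Just outside it was Col4a4, at 14.8 in the knockout and 16.1 in the wild type.

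**Figure D1:**
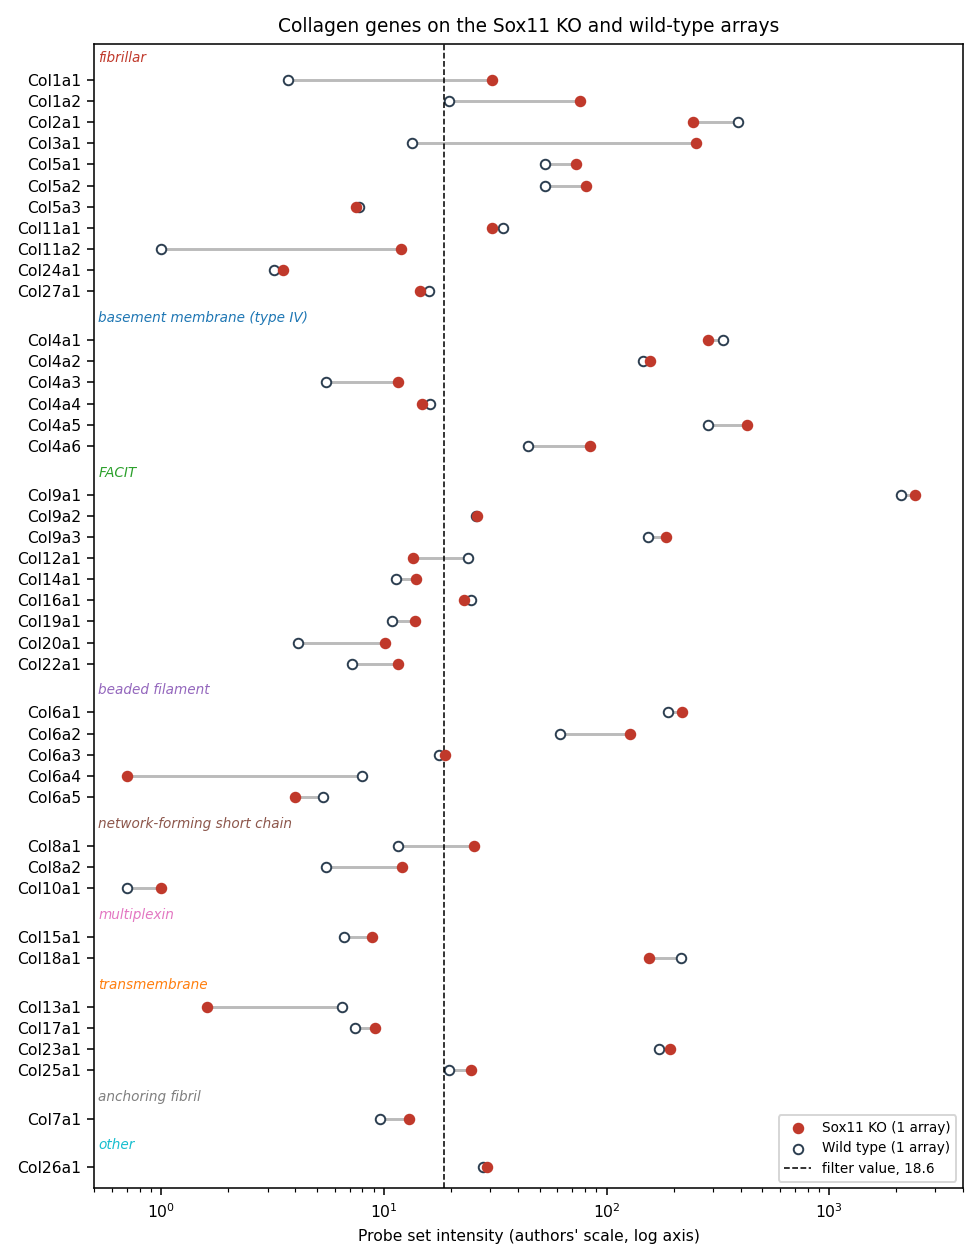
Intensity of each of the 42 collagen genes on the Sox11 KO array (filled) and the wild-type array (open), on a log axis and grouped by class; the dashed line is the filter value of 18.6. The longest bars among genes past the filter are those of Col3a1 (knockout 253.2, wild type 13.3), Col1a1 (knockout 30.5, wild type 3.7) and Col1a2 (knockout 76.1, wild type 19.6); intensities of different genes come from different probes and are not comparable with each other.

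Among the fibrillar collagens, the chains of types I and III stood apart from the others. Col3a1, the single chain of type III collagen in skin and vessel walls, read 253.2 in the knockout and 13.3 in the wild type, a log2 ratio of 3.82. Since the wild-type value lay below 18.6, its fold is at least 13.6. Col1a2, the alpha-2 chain of type I collagen, read 76.1 in the knockout and 19.6 in the wild type, a log2 ratio of 1.72, and its second probe set past the filter gave 1.66. Col1a1, the alpha-1 chain that makes up most of the type I trimer, read 30.5 in the knockout and 3.7 in the wild type, a log2 ratio of 2.03 and a fold of at least 1.64. Col1a2 was at or above 18.6 on both arrays. Col3a1 and Col1a1 passed the filter through their knockout value alone, so the filter fixed their direction.

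The size of these differences depended on the probe set. The second Col3a1 probe set, 1427884_at, read 28.3 in the knockout and 4.2 in the wild type, a log2 ratio of 1.86, against 3.82 for 1427883_a_at. The second Col1a1 probe set, 1455494_at, read 21.8 in the knockout and 9.4 in the wild type, a log2 ratio of 0.90, which is under 2-fold. Both passed the filter through the knockout array alone, as did the second Col1a2 probe set, so the filter fixed their direction too.

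Type V collagen, which is built into type I fibrils and sets their diameter, was higher by less. Col5a2 read 80.9 in the knockout and 53 in the wild type, a log2 ratio of 0.57, and its second probe set gave 0.28. Col5a1 read 73.1 in the knockout and 52.8 in the wild type, a log2 ratio of 0.43, and its second passing probe set was level at 0.05. Col3a1 and Col5a2 are neighbours on chromosome 1 with no protein-coding gene between them, and their ratios were 3.82 and 0.57.

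Of the fibrillar collagens of the vitreous and of cartilage, only Col2a1 had a direction, and it was lower in the knockout. Col2a1, the type II chain, read 245.3 in the knockout and 389.5 in the wild type, a log2 ratio of -0.66, the lowest of the 24; it had 1 probe set. Col11a1, whose chain nucleates type II fibrils, read 30.4 in the knockout and 34.4 in the wild type, a log2 ratio of -0.15, but its second probe set read 33 in the knockout and 25.1 in the wild type, a log2 ratio of 0.34, so no direction can be given. The remaining fibrillar genes, Col5a3, Col11a2, Col24a1 and Col27a1, were below the filter on both arrays. Over the 7 fibrillar genes past the filter the median was 0.57, and 5 were positive, against 47.7% of all genes past the filter. Without Col1a1, Col1a2 and Col3a1 it was 0.14 over 4 genes, 2 of them positive.

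**Figure D2:**
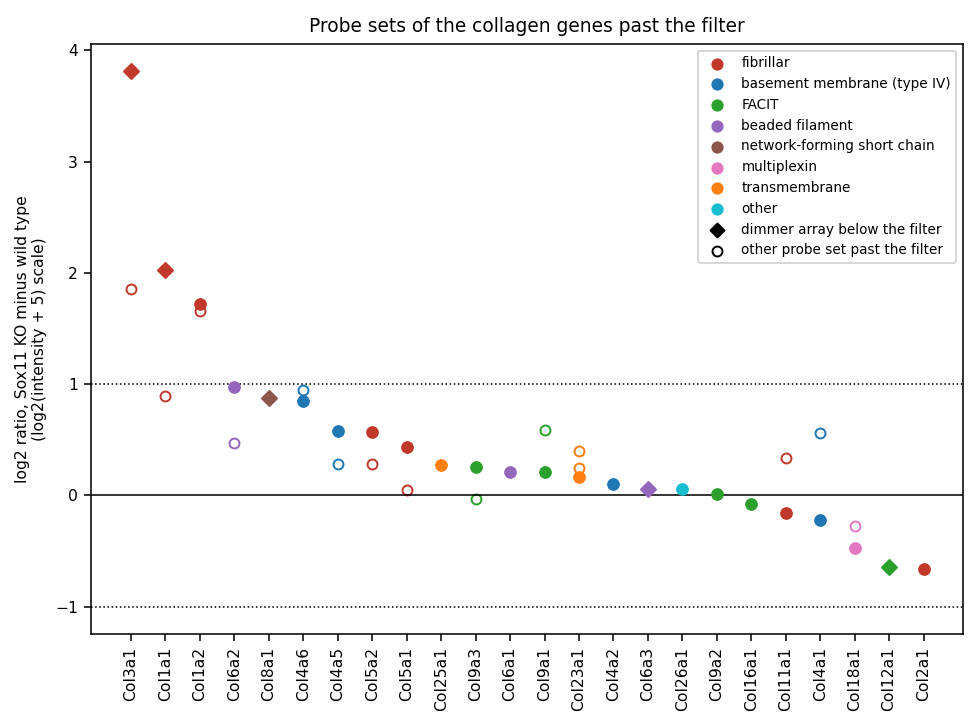
Log2 ratio, Sox11 KO minus wild type, of every probe set past the filter for the 24 collagen genes past the filter, ordered by the probe set that stands for the gene (filled); diamonds mark genes whose dimmer array was below the filter, and dotted lines mark 2-fold. Col3a1, Col1a1 and Col1a2 lie above the upper line, and Col9a3, Col11a1 and Col4a1 have probe sets on both sides of 0.

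The marker lists of mesenchyme, of macrophages and microglia and of pigment epithelium moved with the type I and III chains. Their part in these differences was not tested. Not all lists did so. The skeletal muscle list had a median of 0.11 over 3 genes past the filter. Its Tnni1 passed through its wild-type value alone and had a log2 ratio of -2.46. The astrocyte list had a median of 0.13 over 2 genes, 1 of them negative. In bulk tissue, fewer cells of a type and less RNA per cell cannot be told apart. Of 11 mesenchyme markers on the array, none of them a collagen, 7 passed the filter, 5 of these through their knockout value alone. Of the 7, 6 were higher in the knockout, against 47.7% of all genes past the filter. The median log2 ratio of the 7 was 1.79, but 0.89 with values below 18.6 set to 18.6, and 0.56 over all 11. The intensities of the 11 summed to 444.1 in the knockout and 242 in the wild type. The proteoglycan genes Dcn and Lum, whose products bind collagen fibrils, were at least 7.17-fold and at least 2.87-fold higher in the knockout, and the matrix gene Mgp at least 3.34-fold, all with wild-type values below 18.6. Pdgfra, a receptor that astrocytes also carry, was above the filter on both arrays and had a log2 ratio of -1.01. No mesenchyme marker was at 0, but the transcription factor genes Foxc2 and Twist1 were near it, at 0.3 and 1 in the knockout and at 1.5 and 4.4 in the wild type. All 9 macrophage and microglia markers past the filter were higher too, against 47.7% of all genes past the filter. Of these markers, 2 passed through their knockout value alone. Their median was 1.14, and the sum over 11 markers was 769.4 in the knockout and 351.2 in the wild type. Of 7 pigment epithelium markers past the filter, 6 were higher, 3 of them through their knockout value alone, where 47.7% of all genes past the filter were. Their median was 0.79, or 0.19 with values at 18.6, and the sum over 9 markers was 439.7 in the knockout and 288 in the wild type. Among those above the filter on both arrays Dct, a melanin synthesis gene, read 122.9 in the knockout and 63 in the wild type. The others were Pmel, Tyrp1 and Mitf, with log2 ratios of 0.60, 0.19 and -0.06. The cartilage and sclera list, which bears on Col2a1 and Col9a1, had no marker past the filter among 8, and its highest intensities were 12.9 in the knockout and 12.3 in the wild type.

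Among basement membrane collagens, Col4a1 and Col4a2 are the widespread pair, transcribed from a shared promoter region in opposite directions, and no direction can be given for the pair. Col4a1 read 284.2 in the knockout and 332.8 in the wild type, a log2 ratio of -0.22, while its second probe set read 97.3 in the knockout and 64.4 in the wild type, a log2 ratio of 0.56, so its probe sets disagree. Col4a2 read 157.1 in the knockout and 145.6 in the wild type, a log2 ratio of 0.11, from 1 probe set. The RefSeq windows of this pair overlapped by 78 bases.

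The X-linked pair, Col4a5 and Col4a6, was higher in the knockout. Col4a6, a chain found in lens capsule and other specialised basement membranes, read 84.2 in the knockout and 44.5 in the wild type, a log2 ratio of 0.85, and its second probe set gave 0.95. Col4a5, its partner chain, read 429.1 in the knockout and 285.3 in the wild type, a log2 ratio of 0.58, and its second probe set gave 0.29. All 4 probe sets of the pair were above 0, and none reached 2-fold on the log2(intensity + 5) scale, though the second Col4a6 probe set was 2.13 times as bright in the knockout, at 51.3, as in the wild type, at 24.1. The arrays differed in Xist, as given above, at 922.7 in the knockout and 12.3 in the wild type. For this pair, too, sex cannot be told apart from genotype. The 381 other X-linked genes past the filter had a median log2 ratio of 0.00, against -0.01 for the 11129 autosomal genes. Lens markers summed to 433.9 in the knockout and 305.2 in the wild type, with none at 0. Their median was 0.74 over the 6 past the filter, or 0.47 with values at 18.6, and 0.37 over all 10. Of the 6, 4 were positive (47.7% over all genes), 2 of these through their knockout value alone, and 2 were negative, among them Cryaa at -0.52. The part of lens markers in the Col4a6 difference was not tested. Col4a3 and Col4a4, which join Col4a5 in the network of the kidney filter, were below the filter on both arrays. The median of the 4 type IV genes past the filter was 0.34.

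Type VI collagen, which forms beaded filaments next to basement membranes, was read from its 3 classical chains. Col6a2 read 126.8 in the knockout and 61.9 in the wild type, a log2 ratio of 0.98 and 2.05 times the wild-type intensity, and its second probe set, 1426947_x_at, gave 0.47. Col6a1, its neighbour on chromosome 10 and its partner in the trimer, read 218.4 in the knockout and 188.3 in the wild type, a log2 ratio of 0.21. Col6a3, the third chain, was at the filter value with a log2 ratio of 0.06. All 3 ratios were above 0; that of Col6a3 was below 0 after quantile normalization and loess. The SD between probe sets of the same gene, pooled over the collagens, was 0.48, with the widest gap in Col3a1, and it was 0.26 over all genes. The Col6a2 probe sets themselves gave 0.98 and 0.47, so the chains are not shown to differ from each other. Pericyte and smooth muscle markers, cells in which type VI collagen is made, summed to 407.6 in the knockout and 327.7 in the wild type. Their median was 0.43 over the 5 past the filter, or 0.34 with values below the filter set to it. Of these, Abcc9 passed through its knockout value alone. Over all 8 markers the median was -0.03 and 4 were positive, against 47.4% of all genes, so no direction can be given for the list. None was at 0, and the part of these markers in the Col6a2 difference was not tested.

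Of 9 FACIT genes, 5 passed the filter. All of these but Col12a1 had log2 ratios between -0.08 and 0.26 for the chosen probe set. Col9a1, a chain of the type IX collagen that coats vitreous fibrils, read 2428.8 in the knockout and 2101.9 in the wild type, a log2 ratio of 0.21. Its second probe set, 1421381_a_at, read 709.8 in the knockout and 470.9 in the wild type, a log2 ratio of 0.59. Both were higher in the knockout. The gene has alternative starts of transcription, of which the downstream one gives the short chain known from the eye, and the files do not say which form a probe set detects.

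The partner chains of Col9a1 differed less. Col9a3 read 184.7 in the knockout and 153.6 in the wild type, a log2 ratio of 0.26, but its second passing probe set gave -0.03. Col9a2 was level, at 26.2 in the knockout and 25.9 in the wild type. Col16a1, a FACIT chain of several tissues, read 22.9 in the knockout and 24.5 in the wild type, a log2 ratio of -0.08. Col12a1, a FACIT chain of type I fibrils, was lower in the knockout, at 13.5 against 23.9 in the wild type, a log2 ratio of -0.64, but its fold against the filter value was only at least 1.28, and a second probe set below the filter, 1434411_at, read 11 in the knockout and 7.8 in the wild type. The median of the 5 FACIT genes past the filter was 0.01, and 3 were positive, against 47.7% of all genes past the filter. With Col9a2 below 0, as after centring, quantile normalization and loess, 2 were.

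The transmembrane collagens past the filter were Col23a1 and Col25a1. Col23a1 read 192.4 in the knockout and 171.3 in the wild type, a log2 ratio of 0.16, and its other probe sets gave 0.24 and 0.40. Col25a1, a neuronal collagen whose ectodomain is shed, read 24.7 in the knockout and 19.6 in the wild type, a log2 ratio of 0.27. All 4 passing probe sets of these genes were above 0, and none reached 1.5-fold. Col13a1, a collagen of the neuromuscular junction, and Col17a1, of the hemidesmosome, were below the filter.

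Of the multiplexins, Col18a1 was lower in the knockout. It encodes the core protein of a basement membrane proteoglycan from which endostatin is released, and loss of the human gene damages the vitreous and retina. It read 154.8 in the knockout and 216.7 in the wild type, a log2 ratio of -0.47, and its second probe set, 1418237_s_at, read 96.6 in the knockout and 117.5 in the wild type, a log2 ratio of -0.27. Both probe sets were lower, and the ratio stayed between -0.50 and -0.37 in the 10 alternative settings run for it. Endothelial markers summed to 754.5 in the knockout and 904.4 in the wild type, while the median over the 4 past the filter was 0.43; that sum rests largely on Kdr, a receptor gene also active in retinal progenitors, at 456.1 in the knockout and 673.2 in the wild type. None of these markers was at 0, and their part in the Col18a1 difference was not tested. The other multiplexin, Col15a1, was below the filter.

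Col8a1, a short network-forming chain of corneal and vascular membranes, read 25.4 in the knockout and 11.6 in the wild type, a log2 ratio of 0.87 and a fold of at least 1.37. Its other probe sets were below the filter and pointed in different directions, with 15 in the knockout and 2.5 in the wild type for 1418440_at, and 3.6 in the knockout and 5.5 in the wild type for 1418441_at. Col26a1 was level at 29.1 in the knockout and 27.8 in the wild type. Col8a1 passed through its knockout value alone, so its direction was fixed by the filter.

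The 18 collagen genes below the filter had intensities between 0.7 and 16.1, where the ratio rests on the pseudocount. Of these, 12 ratios were positive, where 47.4% of all genes were with no filter, 6 were negative, and 2 lay beyond 2-fold. Col11a2, a partner chain of Col11a1, read 11.9 in the knockout and 1 in the wild type, and Col6a4 read 0.7 in the knockout and 8 in the wild type. No fold is given for them. The others were Col4a3 and Col4a4 of type IV, Col5a3, Col24a1 and Col27a1 among fibrillar chains, the FACIT genes Col14a1, Col19a1, Col20a1 and Col22a1, and Col6a5, Col7a1, Col8a2, Col10a1, Col13a1, Col15a1 and Col17a1.

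**Figure D3:**
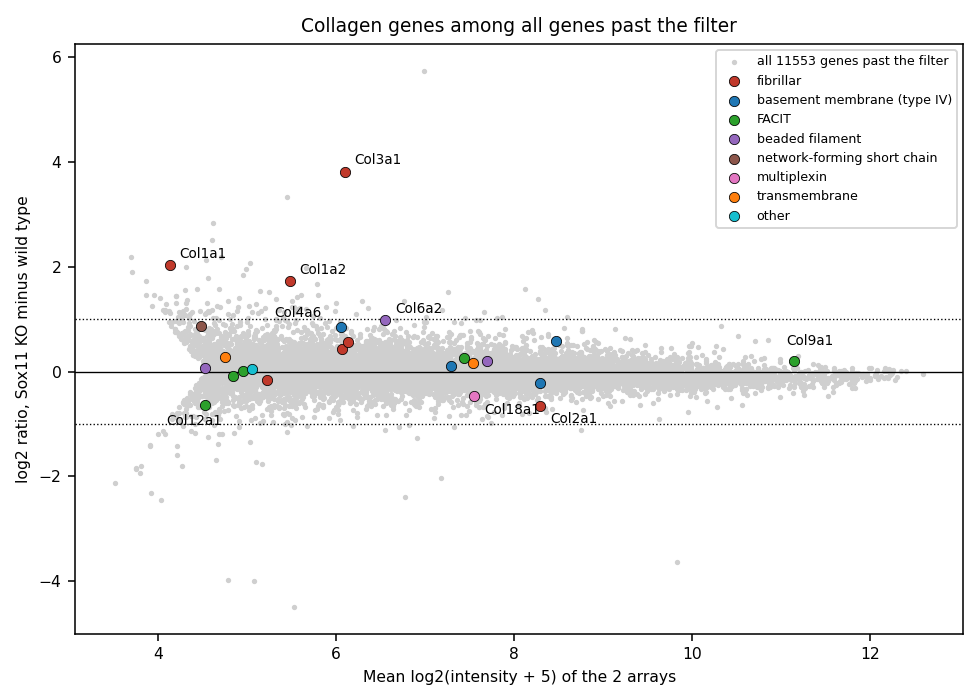
Log2 ratio, Sox11 KO minus wild type, against mean log2(intensity + 5) for the 11553 genes past the filter (grey), with the 24 collagen genes coloured by class; dotted lines mark 2-fold. Col3a1 at 3.82, Col1a1 at 2.03 and Col1a2 at 1.72 lie above the cloud, Col2a1 at -0.66 lies near its lower edge, and Col9a1 is far to the right at 0.21.

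Genes past the filter were also split by the intensity of their brighter array. Of the 24, 11 had a brighter array at or above 109.4, the pooled 75th percentile. Among these Col3a1 was at least 2-fold higher, where 0.239% of such genes were. The other 13 lay between 18.6 and 109.4 and held Col1a1 and Col1a2 as genes at least 2-fold higher, where 2.12% were. Col3a1 and Col1a1 entered their bands through their knockout value alone, so their direction was fixed and these shares are no test of them. With wild-type intensities below 18.6 set to 18.6, the knockout intensity was at least 2 times the wild type for Col3a1, Col1a2 and Col6a2, 3 of the 24, where the background was 0.727%.

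The enzymes and chaperones that build collagen chains in the endoplasmic reticulum were about level. Of 20 such genes, 17 passed the filter, none was 2-fold apart, 11 were positive (47.7% over all genes), and the median log2 ratio was 0.07. P4ha2, a prolyl 4-hydroxylase subunit, read 60.6 in the knockout and 34.9 in the wild type, a log2 ratio of 0.72. Crtap, a cofactor of prolyl 3-hydroxylation, had 0.65, and Serpinh1, the collagen chaperone HSP47, had 0.42. The list for procollagen secretion had a median of 0.00 over 10, with Sec24d at 0.38 and Preb at -0.31. It also held Tango2, at 0.34, whose part in procollagen secretion is not established.

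Genes acting on collagen outside the cell included several that were 2-fold apart. All 5 propeptide cleavage genes past the filter, of 9, were higher in the knockout, where 47.7% of all genes past the filter were. Of these, Adamts3 passed through its knockout value alone, so the filter fixed its direction. With no filter, 6 of the 9 were positive, against 47.4% of all genes. The median of the 5 was 0.74, or 0.50 with values below 18.6 set to 18.6. Pcolce, which enhances removal of the C-propeptide of fibrillar collagens, read 64.9 in the knockout and 24.8 in the wild type, a log2 ratio of 1.23. Tll1, a protease of that step, read 89.5 in the knockout and 37.5 in the wild type, a log2 ratio of 1.15, and Adamts3, which removes the N-propeptide, was at least 1.53-fold higher, with 28.4 in the knockout and 15 in the wild type. Of 18 genes of cross-linking and fibril assembly, 10 passed, 7 were positive (47.7% over all genes) and 3 were at least 2-fold higher (0.961% over all genes). These were Dcn and Lum, which passed through the knockout array alone, and Bgn, with a log2 ratio of 1.21. The median was 0.35. Without the mesenchyme markers it was 0.21 over 7 genes, of which 4 were positive and 1 at least 2-fold higher. Fn1, fibronectin, had -0.52, at 225.3 in the knockout and 325.4 in the wild type.

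Partners of collagen in the basement membrane were divided, 8 of 16 above 0 and 8 below, with a median of -0.12. Of the 8 above 0, 4 passed the filter through their knockout value alone, so the filter fixed their direction. The 8 below 0 were above the filter on both arrays. Lama4, a laminin chain of vessel walls, read 21.5 in the knockout and 3 in the wild type, a log2 ratio of 1.73 but a fold of at least 1.16. Nid2, a nidogen that links laminin with type IV collagen, was at least 1.18-fold higher, at 22 in the knockout and 9.1 in the wild type, and Lama2, a laminin chain of muscle and vessels, at least 1.95-fold. On the other side, Hspg2, perlecan, read 52.5 in the knockout and 94.6 in the wild type, a log2 ratio of -0.79. Pxdn, the peroxidase that cross-links type IV collagen, had -0.68, at 149.4 in the knockout and 243 in the wild type, and Agrn, agrin, had -0.31. Perlecan, agrin and Col18a1 encode the heparan sulfate proteoglycans of basement membranes, and each had a negative ratio. That grouping was made after the values were seen. Hspg2 and Agrn have 2 probe sets each, of which only the brighter is given here.

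Few collagen receptors were measured above the filter. Of 12 genes, 4 passed: Cd93 at 0.77 (at least 1.46-fold), Itgb1, the beta-1 subunit of collagen-binding integrins, at 0.47, Ddr1 at -0.07, and Adgrg1, a receptor that binds type III collagen in the developing brain, at -0.66, with 68.5 in the knockout and 111.2 in the wild type. The alpha subunits Itga1, Itga2 and Itga10 were below the filter. Genes of matrix degradation had a median of 0.14 over 7, led by the inhibitor Timp1 at 0.94 (at least 1.03-fold), with the gelatinase gene Mmp2 and the membrane protease gene Mmp16 at 0.45 and 0.44.

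**Figure D4:**
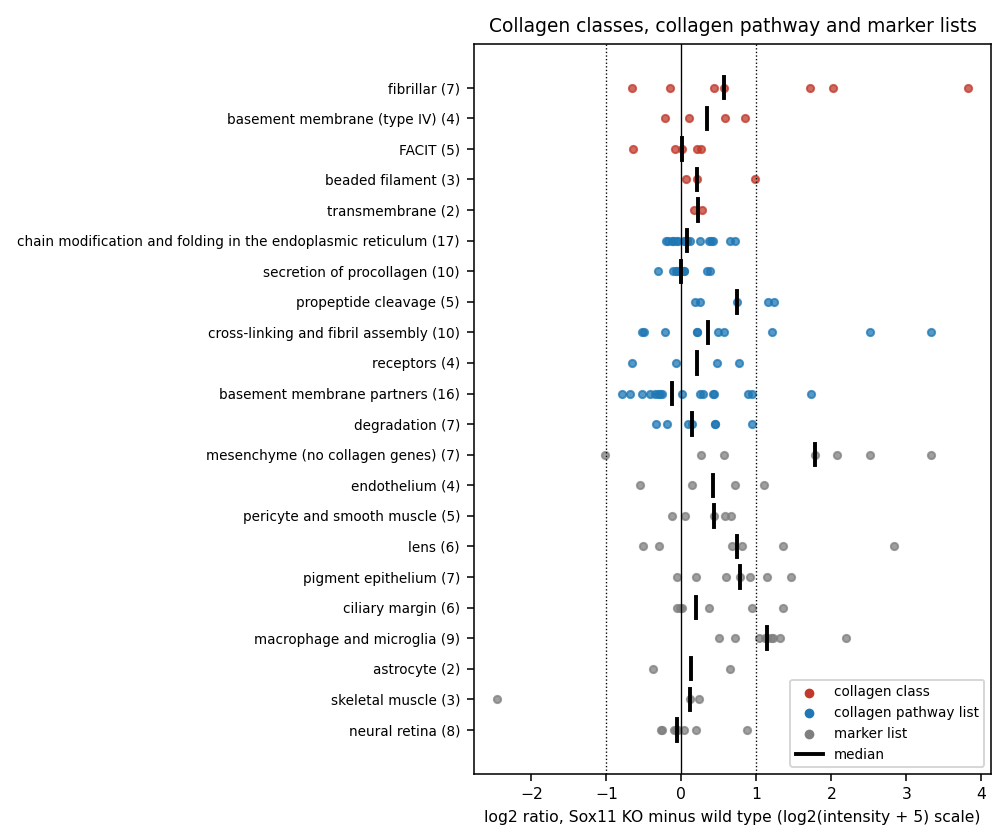
Log2 ratios, Sox11 KO minus wild type, of genes past the filter in each collagen class (red), each list of collagen pathway genes (blue) and each marker list (grey), with the number of genes in parentheses and the median as a bar. The medians of mesenchyme (1.79) and of macrophage and microglia markers (1.14) lie above 1; with values below the filter set to it, that of mesenchyme is 0.89 and that of macrophages stays at 1.14.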

How the data were processed

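Total RNA of 1 Sox11 knockout and 1 wild-type retina was turned into biotin-labelled cRNA for Affymetrix mouse arrays, 1 per retina, per the labels' protocols. The deposited intensity values are linear, 1 per probe set and array; which software the authors used is not given in the sources used here. Leaving out 2% at either end, each array averaged 100, so the authors had scaled them alike. Median intensities were 19.7 in the knockout and 17.6 in the wild type. Each group was taken from the genotype label, and the number of arrays limits the precision.

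The 64 control probe sets were left out, which left 45037, of which 34945 had 1 gene symbol, 932 several and 9160 none in GEO's platform annotation. All 42 collagen genes matched RefSeq (GRCm38.p6) by Entrez number. A gene took its probe set with the highest mean intensity. For single pathway and marker genes, agreement with their other probe sets was not examined. Values were used as log2(intensity + 5), 5 being the pooled 25th percentile, with no further scaling. A value below 18.6 on the dimmer array gave a lower bound, the brighter intensity over 18.6. Ratios of probe sets for the same gene had a pooled SD of 0.26, and of 0.48 for collagens. Values on both arrays were given for members at least 1.5-fold apart, the ends of each class, members with discordant probe sets and chain partners, and for up to 3 genes of each pathway list and all at 2-fold or more. The members, lists and rules were chosen with earlier results of these data known. Alternatives were centring, quantile normalization, loess (span 0.3), pseudocounts, filters and the choice of probe set. Python 3.11.15, numpy 2.4.6, pandas 2.3.3, scipy 1.17.1 and statsmodels 0.14.6 were used, and the procedure was tested on simulated data.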

Additional observations from a re-analysis of the deposited data

How the results depend on the processing

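Of the members above the filter on both arrays, Col1a2, Col4a5, Col4a6, Col5a2 and Col6a2 stayed positive and Col2a1 and Col18a1 negative in all settings run for each. The filter fixed the sign of Col3a1, Col1a1, Col8a1 and Col12a1. Col3a1 ranged from 1.86 to 4.25 and Col1a1 from 0.59, with values at the filter, to 3.04. Col11a1, Col4a1, Col9a2, Col9a3, Col6a3 and Col26a1 changed sign in at least 1 setting. The median of the collagen genes stayed between 0.16 and 0.23. Collagen genes at least 2-fold higher numbered 5 with no pseudocount and 1 with the filter at 109.4; without a filter 1 was lower. All genes at least 2-fold higher and lower numbered 169 and 80 with no pseudocount, 36 and 14 with the pseudocount at the median, 284 and 242 with no filter, and 17 and 11 with the filter at 109.4, against 111 and 47. The higher share of 70.3% was 57.7% after quantile normalization. The fibrillar median was 1.58 with the filter at 109.4, 1.11 without probe sets of suffix s, x or a, which can detect several transcripts, and 0.14 without Col1a1, Col1a2 and Col3a1, a choice made after seeing the data. The beaded filament median was 0.59 with the filter at 109.4, the propeptide list 0.25 with no filter, and the receptor list -0.067 with the filter at 109.4, and 0.51 without such probe sets. The other collagen and pathway medians moved by less than 0.26 in these settings. Signal below 18.6 limits 18 members on both arrays and 5 on 1 array. No paired analysis was possible because each genotype had 1 array.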

Other observations

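Several collagen genes lie side by side in the genome with no other protein-coding gene between them. Their log2 ratios are given here without a comparison, since the pooled SD between probe sets of the same collagen gene was 0.48. Col6a2 and Col6a1 had 0.98 and 0.21, Col4a6 and Col4a5 0.85 and 0.58, and Col4a1 and Col4a2 -0.22 and 0.11. Col9a1, at 0.21, lies beside Col19a1, which was below the filter at 13.8 in the knockout and 10.9 in the wild type. Col18a1, at -0.47, is separated from Col6a1 by 2 protein-coding genes.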
